A study of Mus musculus with 4 samples.

Results

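Chromatin accessibility was described at the loci of 6 immediate-early genes: Zfp36, Dusp1, Nfkbia, Tnfaip3 and Btg2, whose products damp inflammatory signalling or cell growth, and Ier2. A peak was a member where it overlapped 1 of 6 fixed windows of the GRCm39 mouse genome, and 39 of the 57090 peaks did. The windows were 40 kb wide on chromosome 7 for Zfp36, with 3 peaks within chr7:28070924-28092991, 50 kb on chromosome 17 for Dusp1, with 6 peaks within chr17:26706233-26734202, and 60 kb on chromosome 12 for Nfkbia, with 10 peaks within chr12:55512266-55553001. They were 70 kb on chromosome 10 for Tnfaip3, with 5 peaks within chr10:18875205-18920003, 50 kb on chromosome 1 for Btg2, with 13 peaks within chr1:133981048-134027546, and 40 kb on chromosome 8 for Ier2, with 2 peaks within chr8:85381332-85392421. All 39 passed the filter on low counts, with a lowest count of 66 in any library. No annotation of that build was used here, so no peak was placed in a promoter, exon or intron, and a window also holds sequence beyond its gene. In the RefSeq gene order the nearest coding genes were Plekhg2 and Med29 for Zfp36, Neurl1b and Ergic1 for Dusp1, Psma6 and Aldoart2 for Nfkbia, Perp and Olig3 for Tnfaip3, Fmod and Chit1 for Btg2, and Cacna1a and Nacc1 for Ier2.

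ATAC-seq, in which a transposase cuts accessible DNA and the resulting fragments are sequenced, was performed on bone marrow monocytes of femur and mandible. The mice were labelled male and 2 months old, with marrow of 4 mice pooled per batch and 20000 cells taken per library, and the methods give the strain as C57BL/6J with no further allele or treatment. The methods speak of animals of both sexes. There were 2 femur and 2 mandible libraries, with replicate 1 of each site from batch A and replicate 2 from batch B. The labels call the cells CD11b+, whereas the protocol describes monocytes collected as the unbound fraction after other cells were removed. The label was not checked against marker genes here, and in such bulk samples a change in the mix of cells and a change of accessibility per cell cannot be told apart.

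Immediate-early genes are transcribed within minutes of a stimulus without new protein synthesis, and their loci are often open before it. Signals through NF-kB and the MAP kinases switch on inflammatory genes and, at the same time, genes that end the response. Zfp36 encodes tristetraprolin, which binds AU-rich messages such as that of TNF and promotes their decay. Dusp1 encodes a phosphatase that inactivates p38 and JNK. Nfkbia encodes IkBalpha, which holds NF-kB in the cytoplasm, and Tnfaip3 encodes A20, a ubiquitin-editing enzyme that limits signals upstream of NF-kB. Btg2 encodes an antiproliferative partner of the deadenylase complex, and Ier2 encodes a nuclear immediate-early protein.

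Promoter sequence was found in the RefSeq table for 5 of the 6 genes, and it is shown because these stretches carry the elements through which such genes are known to respond. Each run is the 250 bases before the start of transcription, from 5′ to 3′ on the strand of the gene, in GRCm38.p6 coordinates, which were not placed against the peaks. Capitals mark the cyclic AMP response element (CRE) TGACGTCA and its core TGACG, the CArG box of serum response factor, the NF-kB site and the AP-1 element TGANTCA.
Dusp1 promoter, chr17:26508473-26508722, minus strand: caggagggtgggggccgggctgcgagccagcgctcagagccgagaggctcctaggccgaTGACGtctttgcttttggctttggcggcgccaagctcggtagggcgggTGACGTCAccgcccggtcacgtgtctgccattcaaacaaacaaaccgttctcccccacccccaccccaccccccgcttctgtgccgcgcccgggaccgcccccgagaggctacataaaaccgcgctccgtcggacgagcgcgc
Btg2 promoter, chr1:134079156-134079405, minus strand: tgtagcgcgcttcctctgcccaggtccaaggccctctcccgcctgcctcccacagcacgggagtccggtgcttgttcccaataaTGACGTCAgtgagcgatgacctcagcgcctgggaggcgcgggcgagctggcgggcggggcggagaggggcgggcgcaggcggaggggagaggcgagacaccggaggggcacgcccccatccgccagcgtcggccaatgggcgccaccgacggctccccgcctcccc
Zfp36 promoter, chr7:28379229-28379478, minus strand: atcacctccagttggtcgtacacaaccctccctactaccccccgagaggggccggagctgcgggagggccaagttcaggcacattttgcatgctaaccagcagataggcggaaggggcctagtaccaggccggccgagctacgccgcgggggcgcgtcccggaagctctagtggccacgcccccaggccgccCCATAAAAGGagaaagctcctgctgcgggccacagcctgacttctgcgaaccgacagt
Nfkbia promoter, chr12:55492648-55492897, minus strand: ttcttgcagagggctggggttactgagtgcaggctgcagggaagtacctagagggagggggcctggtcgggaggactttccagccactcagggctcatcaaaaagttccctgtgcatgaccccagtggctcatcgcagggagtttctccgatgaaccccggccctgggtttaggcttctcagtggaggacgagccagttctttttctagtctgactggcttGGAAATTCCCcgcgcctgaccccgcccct
Tnfaip3 promoter, chr10:19015411-19015660, minus strand: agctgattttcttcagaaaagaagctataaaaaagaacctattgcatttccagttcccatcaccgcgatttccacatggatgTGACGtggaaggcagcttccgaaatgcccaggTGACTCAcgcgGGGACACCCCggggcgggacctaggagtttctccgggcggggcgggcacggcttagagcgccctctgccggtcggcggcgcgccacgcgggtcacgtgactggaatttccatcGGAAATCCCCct

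Both strands were searched, and the core also lies within every full CRE. A full CRE was found at Dusp1, 143 bases before the start, and at Btg2, 166 bases before it, and in 1.55% of the 32851 promoters of the table. A CArG box lay 58 bases before the start of Zfp36, and 1.47% of promoters held such a box. An NF-kB site lay 29 bases before the start of Nfkbia. At Tnfaip3 there were NF-kB sites 125 and 12 bases before the start, beside an AP-1 element at 136 and a CRE core at 168. The NF-kB site was in 3.9% of promoters, AP-1 in 6.75% and the CRE core in 17.8%. The table's other start of Tnfaip3 held none of these. The matches describe the letters of these stretches and were not tested against the counts.

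The loci differed in the form of their peaks. Width ran from 154 to 13158 bp over the 39 members, with a median of 614 bp against 364 bp over all peaks, and 14 members were 1000 bp or wider. The windows of Zfp36, Dusp1 and Ier2 each held a peak among the widest of the data. Peak_47034 in the Zfp36 window (chr7:28070924-28084081) spanned 13158 bp and was the 5th widest of all, Peak_23233 at Dusp1 (chr17:26719154-26728785) spanned 9632 bp and was the 11th, and Peak_51479 at Ier2 (chr8:85382865-85392421) spanned 9557 bp and was the 12th. Only 13 peaks were wider than 9000 bp. Signal is given as CPM, counts per 1000000 counts in peaks. For loess CPM each count was divided by a loess offset, centred on a common library size, instead of the library's own total. By mean loess CPM the same peaks ranked 2nd, 13th and 28th.

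No peak at the other loci was as wide. Their windows held 10 peaks at Nfkbia, 5 at Tnfaip3 and 13 at Btg2, against 3 at Zfp36, 6 at Dusp1 and 2 at Ier2. The highest peak of each locus is called its lead peak. At Nfkbia it was Peak_11935 (chr12:55537892-55539972) with 2081 bp, at Tnfaip3 Peak_4280 (chr10:18889975-18891770) with 1796 bp and at Btg2 Peak_2076 (chr1:134020293-134022436) with 2144 bp. The lead peak held 99.2% of the summed signal of the Ier2 window, 81.9% at Dusp1, 80.7% at Zfp36, 54.2% at Tnfaip3, 51.4% at Nfkbia and 28.4% at Btg2. Signal at Btg2 was thus spread over several peaks, among them Peak_2073 (2872 bp) with 158 loess CPM.

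**Figure D1:**
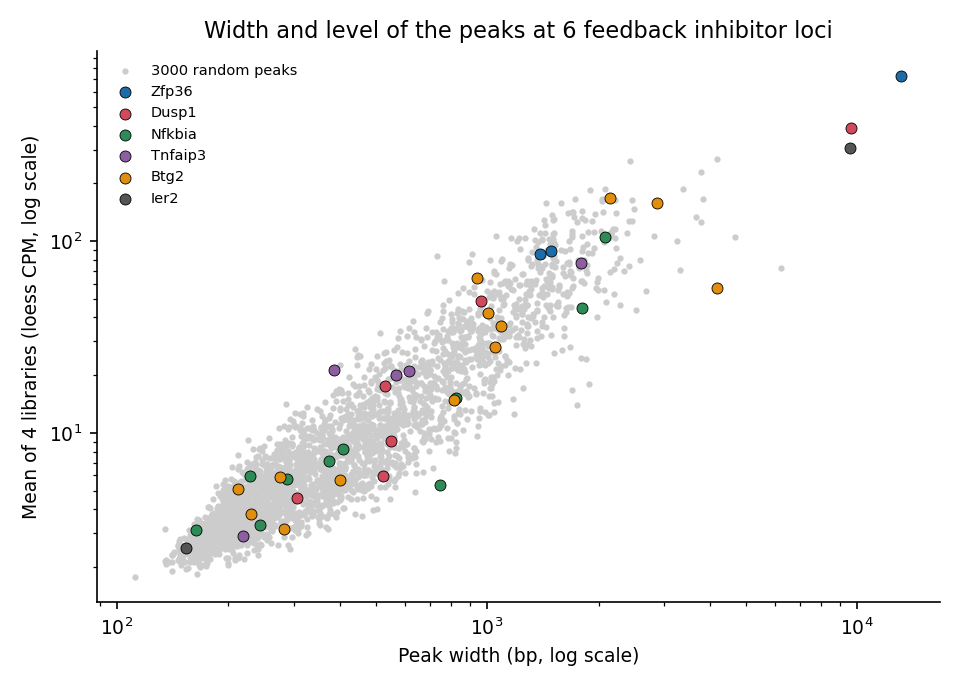
Width in bp and mean loess CPM of the 4 libraries, both on log scales, for the 39 peaks of the 6 loci (coloured by locus) and for 3000 peaks drawn at random from all (grey). The widest peaks of Zfp36, Dusp1 and Ier2 stand at the upper right with 729, 387 and 305 loess CPM, and the lowest member, Peak_51478 at Ier2, stands at 2.52.

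Per length, the lead peak of Btg2 was the densest, with 70.7 to 82.6 loess CPM per kb over the 4 libraries, and that of Ier2 the least dense, with 30.9 to 33.0. Neither range overlapped that of another lead peak. Between them, Zfp36 had 51.6 to 58.6 CPM per kb, Nfkbia 44.8 to 63.6, Tnfaip3 40.1 to 49.9 and Dusp1 35.3 to 45.4. In the order of their means the range of each of these 4 overlapped that of its neighbour. Compared within the same library, Zfp36 and Nfkbia each lay above Tnfaip3 and above Dusp1 in all 4 libraries. Zfp36 lay above Nfkbia in 3 of 4 libraries, and Tnfaip3 above Dusp1 in 3 of 4.

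Library totals in peaks ranged from 27464565 to 75294068 counts, and femur replicate 2 was both the deepest and the farthest from the others, with an SD of log2 differences from the mean of the other 3 of 0.42 against 0.23 to 0.32. The 6 loci held 0.229% of its counts and 0.26% to 0.286% of those of the others. Loess scaling removes from each library the part of its deviation that follows the level of the peaks, so a high peak in one library is compared with other high peaks. CPM by library size alone makes no such correction. It is plotted for the lead peak of each locus and written out for only some of the peaks where the scalings part. A peak given in loess CPM alone is thus not shown to be free of the scaling.

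The question put to the loci was whether accessibility in mandible monocytes differed from that in femur monocytes. With the edgeR quasi-likelihood fit on all 57090 peaks, no member passed an adjusted p of 0.05 in either direction, and every member had an adjusted p of 1. Over all peaks 3 passed as higher in mandible (0.00525%) and 1 as lower (0.00175%). At an unadjusted p under 0.05, 6 of the 39 members (15.4%) were higher and 0 were lower, against 1.61% and 1.10% of all peaks. DESeq2 also called 0 members past its adjusted threshold, but it gave no adjusted p for 14 of the 39. It placed 8 of 39 higher at the unadjusted threshold, where 1.61% of all peaks were. The median log2 fold change of the members was 0.0008 against -0.004 over all peaks, with 20 members higher and 19 lower. The members of a window share cells and libraries and often adjoin each other, so these counts describe the loci and are not independent trials. With 2 libraries per site, an exact two-sided permutation test of any one value cannot go below p = 0.333. The p-values of the fit rest on the spread between pooled batches, which the fit shares across peaks with a prior of 15.7 degrees of freedom.

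In loess CPM both mandible libraries lay above both femur libraries in 8 members (20.5%, against 13.3% of all peaks) and below them in 4 (10.3%, against 13.8%). The 8 were Peak_11933, Peak_11934, Peak_11935 and Peak_11936 at Nfkbia, Peak_4278 and Peak_4279 at Tnfaip3, and Peak_2072 and Peak_2076 at Btg2. The 4 were Peak_23234 and Peak_23236 at Dusp1, Peak_11931 at Nfkbia and Peak_4281 at Tnfaip3, and the interval of each of these included 0. Of the 14 members of 1000 bp or more, 3 were higher at the unadjusted threshold (21.4%) and 0 lower, against 1.49% and 0.655% of the 8551 peaks of that width.

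**Figure D2:**
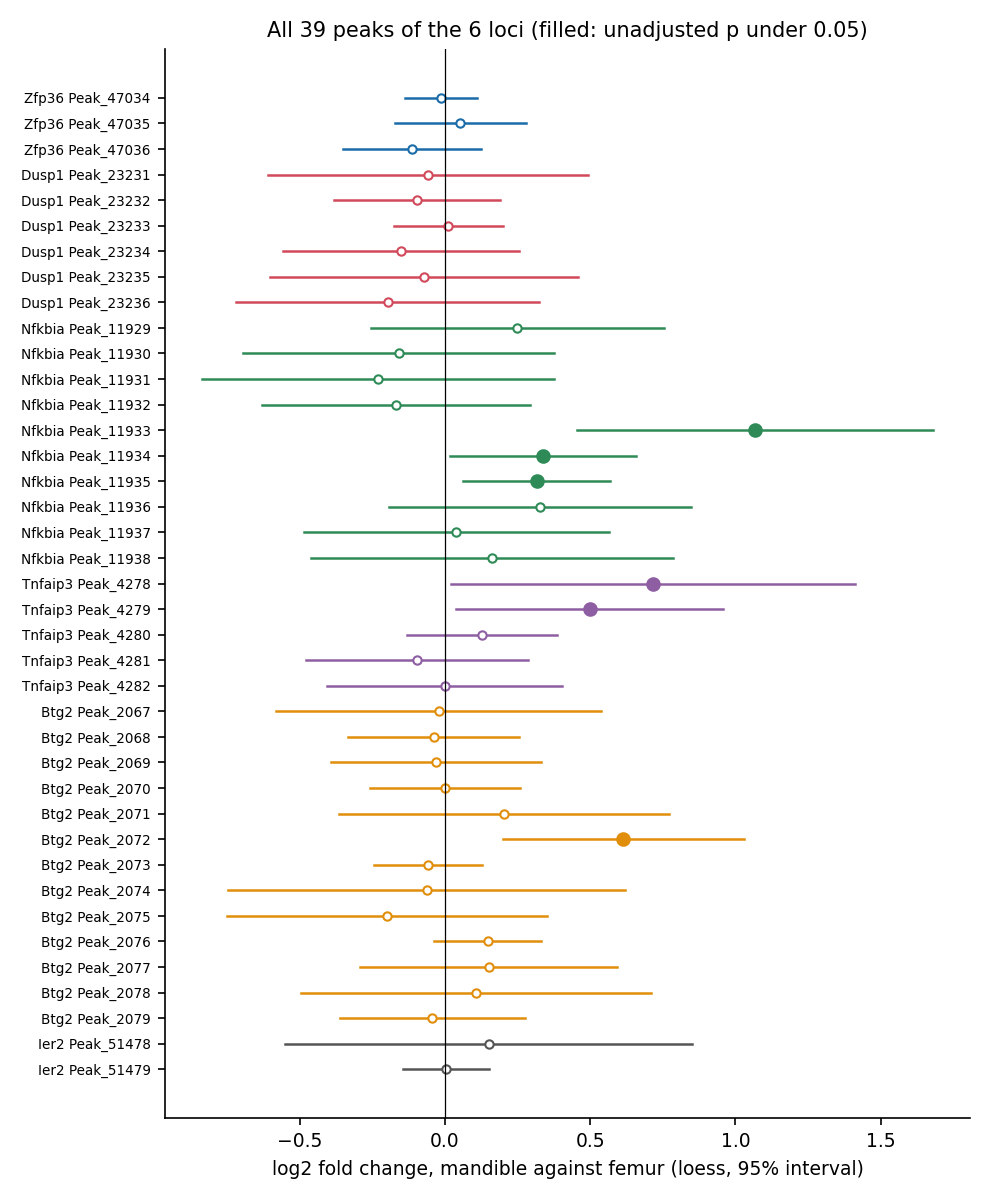
Log2 fold change of mandible against femur with its 95% interval for each of the 39 peaks, in genome order within a locus, from the edgeR fit with loess scaling. The 6 filled points, 3 at Nfkbia, 2 at Tnfaip3 and 1 at Btg2, have an unadjusted p under 0.05 and lie above 0, and none passed the adjusted threshold.

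At Nfkbia 7 of 10 peaks were higher in mandible, with a median log2 fold change of 0.21, where 49.1% of all peaks were higher. Its lead peak, Peak_11935, had 93.2 and 93.4 loess CPM in femur replicates 1 and 2 and 100.0 and 132 in mandible replicates 1 and 2. The groups did not overlap, but the mandible libraries lay much farther apart than the femur libraries. The log2 fold change was 0.32 (SE 0.12, 95% interval 0.06 to 0.57). The adjoining Peak_11934 (chr12:55534564-55536366, 1803 bp) had 38.0 and 41.0 in femur and 43.2 and 56.7 in mandible, with a log2 fold change of 0.34 (SE 0.15, interval 0.02 to 0.66). Mandible replicate 2 was again the highest and mandible replicate 1 close to the femur libraries. Without mandible replicate 2 the values were 0.11 at Peak_11935 and 0.14 at Peak_11934.

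With all 4 libraries, the largest difference of the 39 was at Peak_11933 (chr12:55533600-55534343, 744 bp), which ended 220 bp short of Peak_11934. It had 3.31 and 3.58 loess CPM in femur and 5.21 and 9.31 in mandible. The log2 fold change was 1.07 (SE 0.29, interval 0.45 to 1.68), and the peak ranked 60th of 57090 by p. Without mandible replicate 2 the log2 fold change was 0.60, and Peak_2072 at Btg2 was then larger with 0.77, as it was without femur replicate 1 with 1.11 against 0.995 at Peak_11933. It was also among the sparsest peaks of all for its length, with 7.20 CPM per kb and 0.0385% of peaks below it. The 3 peaks lie in direct succession and ordered the 4 libraries alike, with mandible replicate 2 highest in each. The remaining 7 peaks of the window had log2 fold changes from -0.23 to 0.33, and each interval included 0. Summed over the window, the signal was 185 ± 6.7 loess CPM (SD, n = 2) for femur against 222 ± 41 (SD, n = 2) for mandible. The log2 difference of the sums was 0.27, with 0.10 within batch A and 0.41 within batch B.

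Tnfaip3, the other brake on NF-kB in the group, had 2 peaks higher at the unadjusted threshold. Peak_4279 (chr10:18884922-18885535, 614 bp) had 18.3 and 16.5 loess CPM in femur and 18.8 and 30.4 in mandible, a log2 fold change of 0.50 (SE 0.22, interval 0.04 to 0.96). Only mandible replicate 2 stood clearly apart. Peak_4278 (chr10:18875205-18875423, 219 bp) was low in every library, with 1.94 and 2.44 in femur and 2.78 and 4.49 in mandible, and its log2 fold change was 0.72 (SE 0.33, interval 0.02 to 1.41). Without mandible replicate 2 the values were 0.13 at Peak_4279 and 0.23 at Peak_4278. The lead peak, Peak_4280, had 73.0 and 74.8 in femur and 72.0 and 89.6 in mandible, and the groups overlapped, with a log2 fold change of 0.13 (SE 0.12, interval -0.13 to 0.39). The other 2 peaks had log2 fold changes of -0.10 and -0.001. The window summed to 136 ± 0.74 (SD, n = 2) loess CPM in femur and 150 ± 24 (SD, n = 2) in mandible.

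At Btg2, 6 of 13 peaks were higher and 7 lower, with a median log2 fold change of -0.02. The exception in size was Peak_2072 (chr1:134000702-134004868), a wide and sparse peak of 4167 bp whose 13.7 CPM per kb exceeded that of only 15.1% of peaks. It had 58.4 and 32.1 loess CPM in femur and 76.6 and 61.5 in mandible. Femur replicate 2 was far below the rest, and femur replicate 1 lay just below mandible replicate 2. The log2 fold change was 0.61 (SE 0.20, interval 0.20 to 1.03), and without femur replicate 2 it was 0.24. Peak_2073, which began 126 bp beyond it, had 158 and 165 in femur and 162 and 149 in mandible, so the neighbouring dense peak did not share the difference (log2 fold change -0.06, interval -0.24 to 0.13). The lead peak, Peak_2076, had 168 and 152 in femur and 177 in both mandible libraries, with a log2 fold change of 0.15 (SE 0.09, interval -0.04 to 0.33). The whole window gave 577 ± 33 (SD, n = 2) loess CPM in femur and 610 ± 17 (SD, n = 2) in mandible.

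At Dusp1 5 of 6 peaks were lower in mandible, where 50.9% of all peaks were, and each interval included 0. The median log2 fold change was -0.08 with loess, -0.12 with TMM, -0.22 with library size alone and -0.11 with DESeq2. Over all peaks the medians were -0.004, -0.014, -0.12 and -0.005 in the same order. All 6 Dusp1 peaks were lower within batch A and 4 of 6 within batch B, where 50.6% and 51.0% of all peaks were. The lead peak, Peak_23233, had 398 and 372 loess CPM in femur and 340 and 438 in mandible, so the mandible libraries lay on both sides of the femur libraries. Its log2 fold change was 0.01 (SE 0.09, interval -0.17 to 0.20). Peak_23236 (chr17:26733679-26734202, 524 bp), the peak of this window with the lowest p, had 6.25 and 6.46 in femur and 5.21 and 5.90 in mandible, with a log2 fold change of -0.20 (SE 0.25, interval -0.72 to 0.33). The window held 474 ± 18 (SD, n = 2) loess CPM in femur and 471 ± 78 (SD, n = 2) in mandible.

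Zfp36 and Ier2 showed no difference beyond the libraries' spread under loess scaling. Peak_47034 at Zfp36 had 752 and 712 loess CPM in femur and 679 and 771 in mandible, with a log2 fold change of -0.01 (SE 0.06, interval -0.14 to 0.11). Its companions, Peak_47035 with 0.05 (interval -0.17 to 0.28) and Peak_47036 (chr7:28091605-28092991) with -0.11 (interval -0.35 to 0.12), overlapped between sites as well. Peak_51479 at Ier2 had 299 and 310 in femur and 316 and 295 in mandible, with a log2 fold change of 0.004 (SE 0.07, interval -0.14 to 0.15). Peak_51478 (chr8:85381332-85381485), the other peak of that window, had 1.96 and 2.81 in femur and 2.70 and 2.62 in mandible (0.15, SE 0.33).

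**Figure D3:**
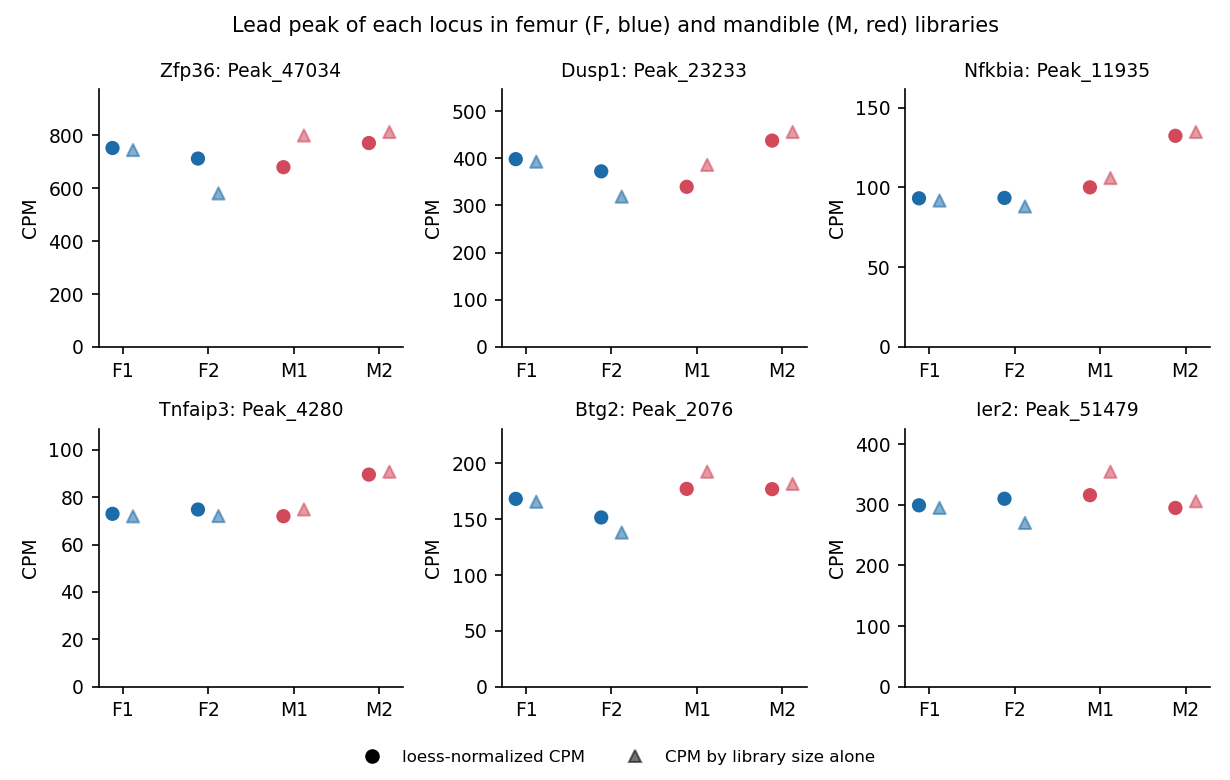
CPM of the lead peak of each locus in femur (F1, F2, blue) and mandible (M1, M2, red) libraries, as loess CPM (circles) and as CPM by library size alone (triangles), with each axis starting at 0. At Zfp36 the mandible triangles of 799 and 812 lie above the femur triangles of 744 and 580, while the circles of 679 to 771 are mixed between sites.

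The result for the very wide peaks turned on this scaling. By library size alone, Peak_47034 had 744 and 580 CPM in femur and 799 and 812 in mandible, so the sites no longer overlapped, and femur replicate 2 was lowest. Its log2 fold change was 0.28 with library size, 0.38 with TMM and 0.39 with DESeq2. For Peak_23233 at Dusp1 the 3 scalings gave 0.24, 0.34 and 0.35, and for Peak_51479 at Ier2 they gave 0.23, 0.32 and 0.33. All of these were under the unadjusted threshold of 0.05, none passed the adjusted one, and the same peaks were near 0 under loess. By library size alone the sites also separated at Peak_51479, with 295 and 270 CPM in femur and 355 and 306 in mandible. At Peak_23233 they still overlapped, with 393 and 319 in femur and 386 and 456 in mandible.

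Other high and wide peaks shifted in the same way. Among the 30 peaks of highest mean CPM, 28 were higher in mandible under TMM with a median log2 fold change of 0.32, whereas 14 were higher under loess with a median of -0.01. Of the 13 peaks wider than 9000 bp, 12 were higher under TMM (median 0.38) and 8 under loess (median 0.01). Of the 8551 peaks of 1000 bp or more, 7428 were higher under TMM and 4200 under loess. With TMM 10 of the 39 members were higher at the unadjusted threshold, where 2.49% of all peaks were, and with library size alone 9 were, where 1.17% of all peaks were. Under library size alone the median of all peaks was -0.12, and relative to it the members' median was 0.09 higher, as it was with TMM. The counts of members higher or lower moved with the scaling as well. Under loess 20 of 39 were higher, under TMM and DESeq2 26, and under library size alone 17. Of all 57090 peaks 28004 were higher under loess, 27307 under TMM, 28103 under DESeq2 and 18308 under library size alone. Zfp36 went from 1 of 3 peaks higher under loess to 3 under TMM, and Nfkbia from 7 of 10 to 6 under TMM and 5 under library size alone. Dusp1 had at most 2 of 6 higher under any of the 4 scalings, and the 6 peaks at an unadjusted p under 0.05 at Nfkbia, Tnfaip3 and Btg2 were higher under each. Peak_4278 was no longer under the unadjusted threshold with TMM, library size alone or DESeq2, nor was Peak_2072 with DESeq2.

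The difference was also taken within each batch. Of the 39 peaks, 10 were higher in mandible in both batches (25.6%, against 20.3% of all peaks), 9 lower in both (23.1%, against 22.0%) and 20 of opposite sign (51.3%, against 57.7%). The members' median log2 difference was -0.02 within batch A but 0.10 within batch B, against -0.003 and -0.010 over all peaks. The 6 peaks under the unadjusted threshold were higher in both batches and more so in batch B, from 0.03 and 0.89 at Peak_4279 to 0.65 and 1.38 at Peak_11933. Each batch holds 1 library per site, so a value within a batch has no replicate.

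**Figure D4:**
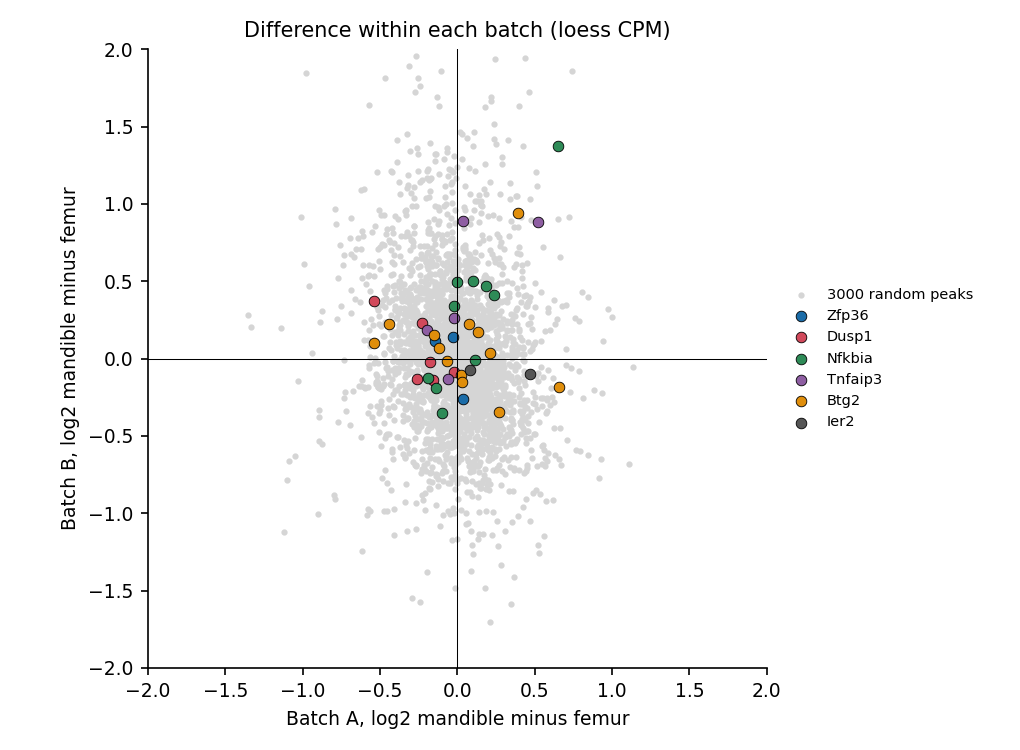
Log2 difference of mandible minus femur in loess CPM within batch A (horizontal) and batch B (vertical), each from 1 library per site, for the 39 peaks (coloured) and 3000 peaks drawn at random (grey, 13 of them beyond the axes). Peak_11933, Peak_4278 and Peak_2072 stand to the upper right with 1.38, 0.88 and 0.94 in batch B, and the peaks of Dusp1 lie left of 0 in batch A.

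The count of 6 rested on mandible replicate 2, the shallowest library. Without it, 1 of 39 members was higher at the unadjusted threshold, Peak_2072 at Btg2, where 0.589% of all peaks were, and the log2 fold change of the lead peak of Tnfaip3 became -0.03. Without femur replicate 2, 5 were higher, where 0.613% of all peaks were, and Peak_2072 was no longer among them. Without femur replicate 1, 5 were higher (12.8%), where 10.3% of all peaks were, so the members' share was then near that of all peaks. Without mandible replicate 1, 6 were higher, where 1.78% of all peaks were. Taking the batch as a block, 5 were higher, where 2.22% of all peaks were. In that fit Peak_2072 passed the adjusted threshold with an adjusted p of 0.00899. Over all peaks the same fit called 47 higher and 10 lower.

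**Figure D5:**
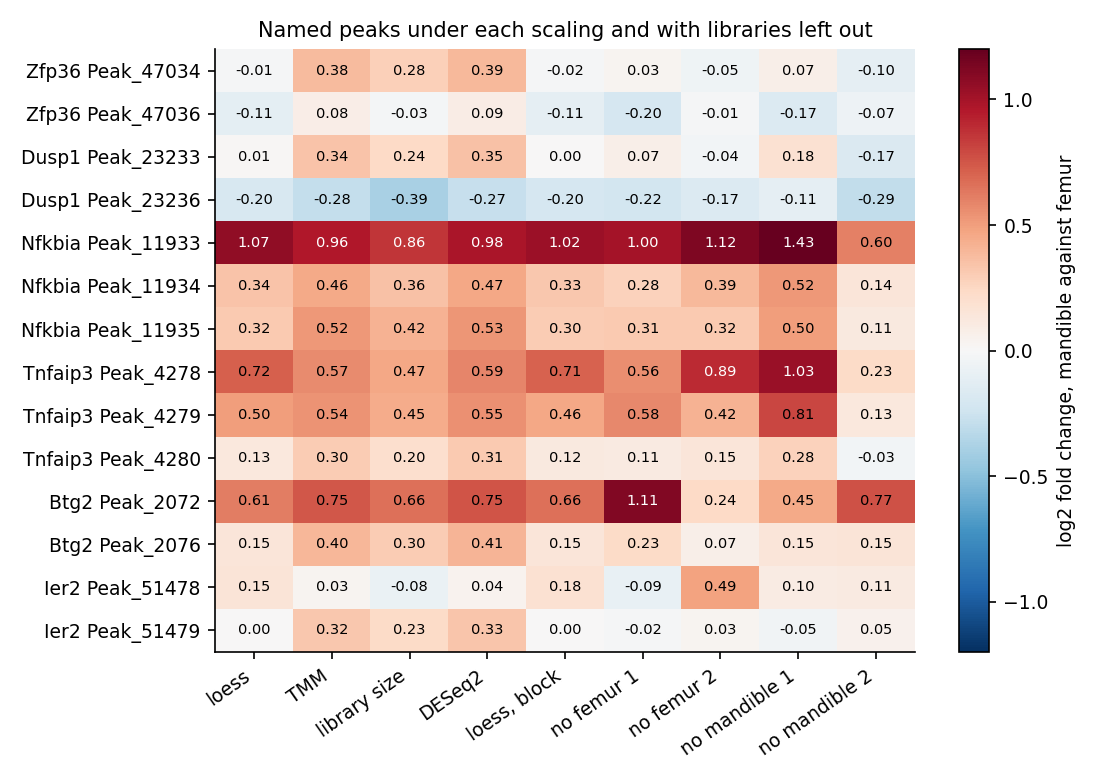
Log2 fold change of mandible against femur for the 14 peaks named by rule (rows) under 4 scalings, with the batch as a block and with each library left out (columns), red for higher in mandible and blue for lower. The 6 peaks under the unadjusted threshold stay red throughout, from 0.11 to 1.43, and the lead peaks of Zfp36, Dusp1 and Ier2 are between -0.01 and 0.01 with loess on all 4 libraries and between 0.23 and 0.39 with the other scalings.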

How the data were processed

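ATAC-seq counts of 2 femur and 2 mandible libraries were analysed. The authors aligned trimmed reads to GRCm39 with Bowtie2, removed poorly mapped reads and duplicates, called peaks with Genrich per pair of duplicates and merged them. Peaks are thus shared by both sites, and wide ones may join several elements. The deposited values are unnormalized read counts per merged peak (featureCounts 2.0.6, fragments up to 1000 bp).

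Counts were fitted in R 4.3.3 with edgeR 4.0.16 (glmQLFit, glmQLFTest; site only) on all 57090 peaks, all of which passed filterByExpr. Loess curves of log counts (pseudocount 0.5) on mean log CPM (limma 3.58.1) gave the offsets. P-values were adjusted by Benjamini-Hochberg over all peaks. The SE is the absolute log2 fold change over the square root of F, and the 95% interval uses a t quantile with the fit's degrees of freedom (prior 15.7). The common dispersion was 0.0291, a replicate coefficient of variation of 17%. Intervals do not cover the choice of scaling.

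Alternatives were TMM, library size alone, DESeq2 1.42.0, at least 1 count, at least 10 counts in every library, an adjusted p threshold of 0.1, the batch as a replicate block and each library left out. The labels give same-numbered libraries the same batch, which pairs them. Their deviations from the site means correlated at -0.167.

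The members and lists were chosen with earlier results of these data known. Peaks named in full were, per locus, the highest by mean loess CPM, the one with the lowest p-value and up to 3 with an unadjusted p under 0.05. Peaks nearest to gene starts, other feedback inhibitor genes and marker genes needed a GRCm39 annotation and were not analysed here.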

Additional observations from a re-analysis of the deposited data

How the results depend on the processing

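Of 140 combinations of the 14 named peaks with 10 alternative fits, 126 kept the direction and 14 reversed, and the cause of the reversals was not tested. Peak_47034 became 0.38 with TMM, 0.28 with library size alone and 0.39 with DESeq2, and lay between -0.10 and 0.072 with 1 library left out. Peak_47036 became 0.077 with TMM and 0.087 with DESeq2. Peak_51478 became -0.079 with library size alone and lay between -0.089 and 0.49 with 1 library left out. With 1 library left out, Peak_23233 lay between -0.17 and 0.18, Peak_4280 between -0.031 and 0.28, and Peak_51479 between -0.047 and 0.052.

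With the batch as a replicate block, which uses the pairing of the libraries, 1 member passed the adjusted threshold (Peak_2072, log2 fold change 0.66), with 47 peaks higher and 10 lower in all. Blocking by the crossed pairing, chosen after seeing the data, gave 2 members, and 184 higher and 23 lower in all. Over all peaks TMM called 6 higher and 0 lower, library size alone 16 and 2, DESeq2 15 and 0, and a threshold of 0.1 gave 9 and 2. With TMM 10 members were higher at the unadjusted threshold, where 2.49% of all peaks were.

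With 1 library left out, a fit that takes the lone library of a site to vary like the other site's, 0 to 2 members passed (2 without femur replicate 1, Peak_11933 and Peak_2072, with adjusted p of 0.0329 and 3.59e-12), 1 to 6 were higher at the unadjusted threshold (2.56% to 15.4%, where 0.589% to 10.3% of all peaks were), and the members' median was between -0.011 and 0.094, the highest without mandible replicate 1. Over all peaks between 4 and 2141 were called higher and between 1 and 547 lower, the highest of both without femur replicate 1. In the fits with all 4 libraries no member was lower at the unadjusted threshold, where 0.746% to 4.53% of all peaks were. DESeq2 gave no adjusted p for 14 members. With 2 libraries per site, small differences at the low peaks were not detectable.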
